A study of Homo sapiens with 11 samples.

Results

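The genes described here are 32 genes of cholesterol and fatty acid synthesis and of its control by the sterol regulatory element binding proteins (SREBPs), taken by name from the deposited table of 38021 genes. They fall into 5 regulators, 19 sterol genes and 8 fatty acid genes, and all 32 passed the filter on low counts that left 17793 genes for testing. The cells were HEK293T, an established human embryonic kidney line, labelled wild type, and each treatment lasted 6 h. Vehicle was 0.1% DMSO. Thapsigargin (Tg), an inhibitor of the pump that loads calcium into the endoplasmic reticulum (ER), and a standard inducer of ER stress, was given at 500 nM. AA147 was given at 10 µM, and AA132 at 0.1, 0.3, 1, 3, 6, 10, 15 and 30 µM. Per the series title, both belong to a study of pharmacological regulators of ER proteostasis. Each of these 11 conditions has 3 numbered columns of counts, which are called libraries here. The labels do not say whether they are separate cultures, so the p-values measure the spread between these libraries, which may be technical. This is a line kept in serum-containing medium, which supplies cholesterol, and 1 time point.

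SREBPs are made as precursors in the ER membrane. When sterols are plentiful the escort protein SCAP is held there by the INSIG proteins, and when sterols fall SCAP carries the precursor to the Golgi, where the site-1 and site-2 proteases release the active transcription factor. The same proteases release ATF6, a sensor of ER stress. The SREBF2 product mainly drives cholesterol genes, and the SREBF1 products mainly drive fatty acid genes.

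Sequence just before the start site was found in the RefSeq promoter table (GRCh38.p14) for 28 of the 32 genes, in 39 windows of 250 bases. The core of the sterol regulatory element was searched as TCACNCCAC on both strands. It was present in 1 member, SREBF2, where it begins 133 bases before the start site, and in 0.883% of all 35116 windows in the table. The CCAAT box, searched as CCAAT on both strands, was in 24 of the 39 member windows (61.5%) and in 32.01% of all windows. The ER stress element, searched as CCAAT and CCACG with 9 bases between them, contains a CCAAT box, and was in 0 member windows and in 0.074% of all windows. These matches describe letters and are not measured binding sites. The stretches below are shown because SREBF2 holds the core match, SREBF1, STARD4 and HSD17B7 had the largest rises under Tg, and HMGCS1 had the largest rise among the sterol genes under AA132. Each is the part of its window that lies before the gene in the GENCODE annotation, read 5′ to 3′ on the gene's strand, with the sterol element core or a CCAAT box (ATTGG on the other strand) in capitals.
SREBF2 (chr22:41832855-41833104, plus strand): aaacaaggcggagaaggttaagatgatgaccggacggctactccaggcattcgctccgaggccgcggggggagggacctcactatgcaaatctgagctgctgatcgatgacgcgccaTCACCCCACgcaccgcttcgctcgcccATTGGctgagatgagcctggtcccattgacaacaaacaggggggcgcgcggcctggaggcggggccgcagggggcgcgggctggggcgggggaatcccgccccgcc
SREBF1 (chr17:17837003-17837236, minus strand): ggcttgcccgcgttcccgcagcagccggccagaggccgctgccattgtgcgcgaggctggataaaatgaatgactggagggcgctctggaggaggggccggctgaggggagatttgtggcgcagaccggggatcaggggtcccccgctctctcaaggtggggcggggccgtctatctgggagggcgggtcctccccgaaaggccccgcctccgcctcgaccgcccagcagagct
STARD4 (chr5:111512591-111512785, minus strand): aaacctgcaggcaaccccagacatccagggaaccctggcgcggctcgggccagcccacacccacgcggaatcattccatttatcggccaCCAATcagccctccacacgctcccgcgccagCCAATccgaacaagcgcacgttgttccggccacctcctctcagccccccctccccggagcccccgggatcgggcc
HSD17B7 (chr1:162790452-162790701, plus strand): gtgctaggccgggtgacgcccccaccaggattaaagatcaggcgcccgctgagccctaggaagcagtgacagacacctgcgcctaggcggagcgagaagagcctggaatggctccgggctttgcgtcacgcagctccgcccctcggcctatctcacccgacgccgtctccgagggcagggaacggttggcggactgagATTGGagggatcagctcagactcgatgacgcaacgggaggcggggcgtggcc
HMGCS1 (chr5:43313513-43313662, minus strand): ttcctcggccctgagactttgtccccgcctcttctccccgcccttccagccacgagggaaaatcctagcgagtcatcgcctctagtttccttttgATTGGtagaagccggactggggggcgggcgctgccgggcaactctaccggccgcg
The STARD4 stretch of 195 bases holds 2 CCAAT boxes, and the SREBF1 stretch of 234 bases holds neither motif.

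Library totals ran from 32.27 to 37.96 M counts. Of the line's markers, VIM, CDH2, NEFL and NEFM were at 37.1 CPM (counts per M counts of the library) or more in every library and PAX2 at 0.41 to 1.53 CPM. The highest value of the blood and liver markers in any library was 0.164 CPM, and among fibroblast markers LUM reached 2.48 CPM. Some libraries stood apart from the others of their condition. The mean squared log2 deviation from the condition mean was 0.062 in vehicle library 1, 0.0313 in AA132 10 µM library 1 and 0.0211 in AA147 library 1, the farthest libraries of the 3 conditions with the most spread, and 0.0283 in vehicle library 2. Every comparison with vehicle shares these vehicle libraries. AA132 1 µM library 1 and 3 µM library 3 went against the order of doses in HSPA5, the ER chaperone BiP, which had 1660, 1028 and 1093 CPM at 1 µM and 1921, 1969 and 1042 CPM at 3 µM. Each thus lay nearer to the libraries of the other dose, as exchanged labels would give, and the labels were kept. Whether they were exchanged was not tested. Many results that rest on these libraries are given with and without them.

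In vehicle, levels per kilobase of exon were highest for ACLY, which makes cytosolic acetyl-CoA from citrate, at 168 ± 9.61 CPM per kb (SD, n = 3). The length was that of all annotated exons of a gene joined, not of the transcripts present, so the order depends on the annotation. FASN, the fatty acid synthase, had 137 ± 7.05 CPM per kb and ACAT2, which joins acetyl-CoA units at the head of the sterol pathway, had 124 ± 8.46. Libraries of FASN and ACAT2 overlapped, from 131.9 to 145 and from 116 to 133 CPM per kb, so the order of these neighbours is not beyond their spread. The lowest were SREBF1, at 1.31 ± 0.15 CPM per kb, and the elongase gene ELOVL6, at 1.15 ± 0.29, which also overlapped. SREBF2 had 48.5 ± 2.44 CPM per kb, against which SREBF1 transcripts were scarce in every vehicle library.

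Tg was compared with vehicle to ask how ER stress changed these genes. SREBF1, at 2.24-fold, and the sterol carrier gene STARD4, at 1.92-fold, rose most, while most of the enzymes that changed fell, by less than this. Of the 32 genes 5 rose and 12 fell at an edgeR adjusted p under 0.05, against 16.2% of all genes tested called higher and 15.0% called lower. Among the 19 sterol genes 3 rose and 9 fell, with a median log2 fold change of -0.21. Among the 8 fatty acid genes 0 rose and 3 fell, with a median of -0.15, and the median over all genes was 0.005. By DESeq2 18 of the 32 were called, and 31.2% of all genes.

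SREBF1 (chromosome 17, 17810399 to 17837002) encodes SREBP-1. Its vehicle libraries had 12.2, 10.2 and 9.92 CPM and its Tg libraries had 24.6, 25.5 and 22.4 CPM. The groups did not overlap, with every Tg library far above the highest vehicle library. The log2 fold change was 1.17 (SE 0.11, adjusted p = 2.39e-10). SREBF2 (chromosome 22, 41833105 to 41907306), which encodes SREBP-2, had 411, 372 and 388 CPM in vehicle and 357, 356 and 361 CPM under Tg. Its groups did not overlap either, yet the change was small and missed the threshold (-0.12, SE 0.05, adjusted p = 0.0594). It passed by DESeq2 (adjusted p = 0.0132) and without vehicle library 2 (-0.18, adjusted p = 0.0128). SREBF1 overlaps RAI1 on the other strand, and the use of strand in counting is not given in the sources used here, so reads of such pairs cannot be told apart. RAI1 itself had a log2 fold change of -0.03 under Tg.

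The INSIG genes, whose products hold SCAP in the ER, differed. INSIG2 (chromosome 2, 118088452 to 118110997) had 12.9, 14.6 and 15.1 CPM in vehicle and 17.5, 19.4 and 18.3 CPM under Tg. All Tg libraries lay above all vehicle libraries, with a log2 fold change of 0.37 (SE 0.09, adjusted p = 0.00228). INSIG1 (chromosome 7, 155297776 to 155310235), itself a target of SREBPs, had 62.5, 75.6 and 81.7 CPM in vehicle and 64.8, 64.7 and 60.1 CPM under Tg. Vehicle library 1 lay among the Tg libraries, and the change was not called (-0.21, adjusted p = 0.222). Without the 3 libraries that stood apart it was called lower (-0.32, adjusted p = 3.08e-04). SCAP had a log2 fold change of 0.03 (adjusted p = 0.783), and 0.16 (adjusted p = 0.0133) without those libraries.

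Of the sterol genes, STARD4 (chromosome 5, 111496033 to 111512590), which moves cholesterol between membranes, rose most. It had 27.0, 46.6 and 47.1 CPM in vehicle and 81.9, 78.6 and 71.5 CPM under Tg. Vehicle library 1 was far below the others, yet every Tg library lay above all 3. The log2 fold change was 0.94 (SE 0.13, adjusted p = 1.09e-06), and 0.72 (adjusted p = 3.93e-08) without the libraries that stood apart. HSD17B7 (chromosome 1, 162790702 to 162812823), a keto-reductase of the later sterol steps, had 24.5, 19.4 and 20.7 CPM in vehicle and 33.5, 36.8 and 33.9 CPM under Tg. Its groups were well apart (0.69, SE 0.10, adjusted p = 1.55e-06). GENCODE lists pseudogenes of HSD17B7, IDI1, FDPS, CYP51A1 and SCD, so reads of these genes may be shared with copies. Fractional counts occurred in 4 members, MVK, IDI1, FDFT1 and STARD4, and the other members had whole counts. What made these counts fractional was not tested. MVD, the mevalonate diphosphate decarboxylase, had 67.6, 41.9 and 49.3 CPM in vehicle and 60.7, 66.3 and 61.6 CPM under Tg. These overlapped through vehicle library 1, and the call was marginal (0.25, adjusted p = 0.0459). It was lost when any 1 of the 3 Tg libraries, vehicle library 2 or vehicle library 3 was left out, with adjusted p up to 0.485 over all alternatives, and stood at 0.46 without the libraries that stood apart (adjusted p = 4.33e-06).

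Among the sterol genes the falls of FDFT1 and LSS, of the squalene and lanosterol steps, were the largest. FDFT1, the squalene synthase, had 321, 306 and 292 CPM in vehicle and 201, 204 and 209 CPM under Tg. The groups were far apart, with a log2 fold change of -0.58 (SE 0.05, adjusted p = 9.72e-11). LSS (chromosome 21, 46188141 to 46228824), the lanosterol synthase, had 116, 111 and 113 CPM in vehicle and 82.5, 78.7 and 78.0 CPM under Tg, again with no overlap (-0.51, SE 0.06, adjusted p = 2.08e-08). SQLE, the squalene epoxidase between them, had 181, 198 and 189 CPM in vehicle and 153, 149.7 and 144 CPM under Tg (-0.34, adjusted p = 7.79e-04). All 3 steps that lead from farnesyl diphosphate to lanosterol were thus lower in every Tg library. EBP, MSMO1 and DHCR7, which act on later sterol intermediates, had log2 fold changes of -0.34, -0.30 and -0.27, and were called lower. ACAT2, MVK and FDPS, of the earlier steps, had -0.25, -0.30 and -0.21, and leaving out vehicle library 1 ended the calls of MVK and FDPS, as Tg library 1 or 2 did for FDPS and vehicle library 2 for MSMO1 (the adjusted p of MVK and FDPS reached 0.126 and 0.41 over all alternatives). With only the Tg and vehicle libraries in the fit 12 members were called, 4 higher and 8 lower, against 10.0% and 8.52% of all genes. That fit ended the calls of EBP, ACAT2, MSMO1, MVK, FDPS and MVD. ACAT2 lies across from TCP1 on the other strand, and TCP1 was also lower under Tg (-0.20, adjusted p = 0.0347).

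HMGCS1 (chromosome 5, 43287470 to 43313512), which makes the HMG-CoA that feeds the pathway, did not follow these enzymes. It had 248, 333 and 327 CPM in vehicle and 319, 348 and 323 CPM under Tg. The groups overlapped, and the log2 fold change of 0.13 (adjusted p = 0.392) became -0.006 without vehicle library 1. CYP51A1, the lanosterol demethylase, NSDHL, SC5D, PMVK, TM7SF2 and IDI1 were not called either, with values from -0.32 to 0.13. The -0.32 was that of IDI1, the isopentenyl diphosphate isomerase, whose 3 Tg libraries at 155, 152 and 150.5 CPM were all below the 181, 200.2 and 190.3 CPM of vehicle. IDI1 was called lower without the libraries that stood apart (-0.36, adjusted p = 2.64e-06).

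Among fatty acid genes FADS2, the delta-6 desaturase, had 92.9, 86.1 and 91.4 CPM in vehicle and 63.9, 62.5 and 61.4 CPM under Tg, with no overlap (-0.52, SE 0.08, adjusted p = 2.36e-06). FASN (chromosome 17, 82078338 to 82098294) had 1355, 1229.7 and 1258 CPM in vehicle and 878, 889.8 and 938 CPM under Tg. The groups were far apart, at a fold of 0.704 (log2 -0.51, SE 0.07, adjusted p = 1.58e-06). ACLY (chromosome 17, 41866917 to 41930542) had 816, 899 and 907 CPM in vehicle and 685, 669.7 and 701 CPM under Tg (-0.35, adjusted p = 1.88e-06). SCD, the stearoyl-CoA desaturase, had 83.8, 119 and 112 CPM in vehicle and 117, 108 and 114 CPM under Tg. Its value of 0.11 (adjusted p = 0.407) rested on vehicle library 1 and became -0.04 without it. ACACA and ELOVL6 were not called with all libraries (-0.03 and -0.14), and were called lower without vehicle library 1 (-0.21, adjusted p = 0.0102, and -0.33, adjusted p = 0.0477). FADS1 lies across from FADS2 on the other strand and had a value of the opposite sign (0.23, adjusted p = 0.0569). ACSS2 had -0.15 (adjusted p = 0.179).

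Without the 3 libraries that stood apart, 7 of the 32 genes were called higher and 14 lower under Tg, against 15.9% and 16.4% of all genes tested in that setting. The sterol median was then -0.09 and the fatty acid median -0.27, so the size of both medians, and which of them was lower, depended on these libraries.

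**Figure D1:**
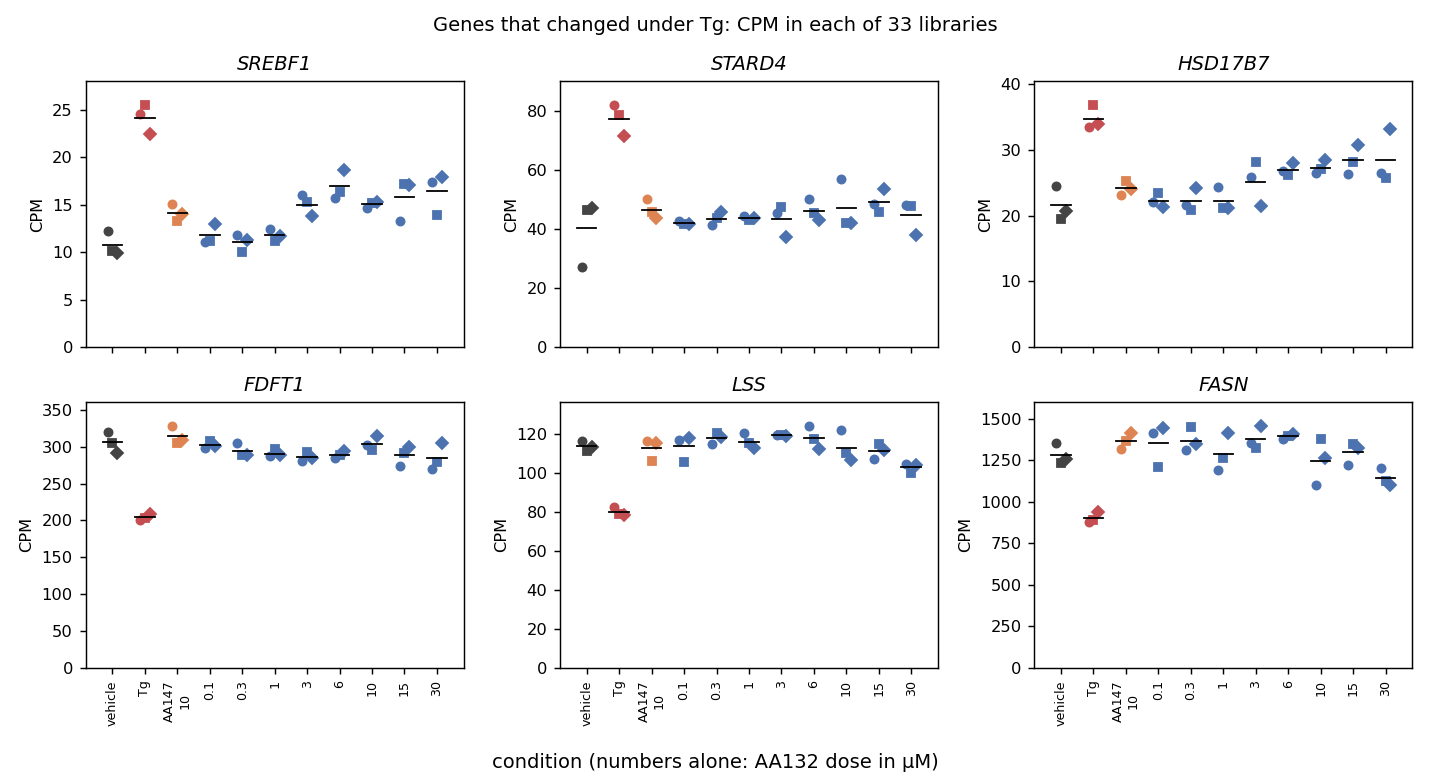
CPM in each of the 33 libraries for 6 genes that changed under Tg, by condition on the horizontal axis. Circles, squares and diamonds are libraries 1, 2 and 3 and bars are means. SREBF1, STARD4 and HSD17B7 are highest under Tg, and FDFT1, LSS and FASN are lowest there.

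AA147 at 10 µM was compared with vehicle for its own effect. It changed 0 of the 32 genes by edgeR, against 0.0225% of all genes called, and 11 of the 32 had an unadjusted p under 0.05, as had 1211, or 6.81%, of all genes. DESeq2 called 1 of them, and 0.25% of all genes. This was FADS1, the delta-5 desaturase (0.41, adjusted p = 0.0222). By edgeR FADS1 also had the lowest adjusted p, 0.127, and it had 103, 77.2 and 75.7 CPM under AA147 against 53.8, 69.4 and 70.1 CPM in vehicle. SREBF1 had 15.1, 13.3 and 14.1 CPM under AA147. All 3 lay above all vehicle libraries, with a log2 fold change of 0.40 (SE 0.11, 95% interval 0.17 to 0.62, adjusted p = 0.327). SREBF2 had 423, 399.6 and 403 CPM under AA147, which overlapped vehicle (0.07, adjusted p = 0.846).

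AA147 library 1 was higher than the other libraries in several classical SREBP targets. HMGCS1 had 472 CPM there and 339.7 and 336 CPM in libraries 2 and 3. INSIG1 had 119, 77.5 and 72.8 CPM, IDI1 295, 183 and 182 CPM, and SQLE 259.7, 202 and 209.6 CPM. Of the 19 sterol genes 13 were highest in library 1. FASN, with 1319, 1367 and 1415 CPM, was lowest there, and SCD had 141, 119 and 113 CPM. The sterol median of 0.11 became 0.002 when AA147 library 1 was left out, and INSIG1 went from 0.29 to -0.06 without all 3 libraries that stood apart. The fatty acid median was 0.18 with all libraries and 0.09 without those 3. Whether library 1 differs by culture, handling or sequencing was not tested.

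AA132 was compared with vehicle at 8 doses. From 6 µM up a small set rose, of which SREBF1 and FADS1 were called at the most doses, and most of the pathway did not pass the test at any dose. At 0.1, 0.3 and 1 µM 0 of the 32 genes were called by edgeR and 0 by DESeq2. The share of all genes called was 0.0% at each of these doses, and 4, 2 and 0 members had an unadjusted p under 0.05, as had 4.47%, 5.51% and 5.94% of all genes. At 3 µM 0 members were called, against 0.118% of all genes, with 6 at an unadjusted p under 0.05, as had 9.19% of all genes. DESeq2 called 1 member at 3 µM and 0.564% of all genes. The member was SREBF1 (0.48, adjusted p = 0.0096), and edgeR called it without AA132 3 µM library 3 (0.54, adjusted p = 0.0422).

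SREBF1 was called at 6, 10, 15 and 30 µM. Its libraries had 15.7, 16.4 and 18.7 CPM at 6 µM, 14.7, 15.2 and 15.3 CPM at 10 µM, 13.3, 17.2 and 17.04 CPM at 15 µM and 17.4, 13.9 and 17.9 CPM at 30 µM. All 12 lay above the highest vehicle library at 12.2 CPM. The log2 fold changes were 0.65 (adjusted p = 7.06e-04), 0.48 (0.0158), 0.56 (0.00222) and 0.61 (5.39e-04), each with an SE of 0.11. These values do not rise steadily with dose, and their intervals overlap. The 10 µM call was lost without vehicle library 2 or 3 or AA132 10 µM library 2 or 3. With the 3 libraries that stood apart left out, the values at 6, 10, 15 and 30 µM were 0.755, 0.602, 0.656 and 0.709. All were still called.

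FADS1 (chromosome 11, 61799627 to 61829318) was the other gene called at all 4 doses. It had 81.9, 86.6 and 83.7 CPM at 6 µM, 87.4, 86.0 and 87.7 CPM at 10 µM, 79.9, 86.9 and 92.8 CPM at 15 µM and 81.5, 85.9 and 84.2 CPM at 30 µM. These libraries all exceeded the vehicle maximum of 70.1 CPM. The log2 fold changes were 0.38, 0.43, 0.42 and 0.38 (adjusted p = 0.0264, 0.00659, 0.00584 and 0.00843). Vehicle library 1 was the lowest, at 53.8 CPM. Without the 3 libraries that stood apart the values at 6, 10 and 30 µM were 0.27, 0.32 and 0.27, all still called. The 6 µM call was lost without vehicle library 1 or any 1 library of that dose, and the 15 µM call without AA132 15 µM library 3. The neighbouring FADS2, whose product acts in the same chain of desaturations, was not called at any AA132 dose.

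CYP51A1 (chromosome 7, 92084987 to 92134803) was called at 6, 15 and 30 µM. It had 50.7, 58.5 and 54.5 CPM in vehicle, and 67.9, 65.7 and 69.0 CPM at 6 µM and 68.2, 68.2 and 62.9 CPM at 30 µM, all above vehicle. The log2 fold changes at these doses were 0.31 (adjusted p = 0.0364) and 0.28 (adjusted p = 0.0193), with adjusted p up to 0.441 and 0.269 over all alternatives. The 6 µM call was lost without vehicle library 1 or 3 or any 1 library of that dose, and the 30 µM call without vehicle library 1 or AA132 30 µM library 1 or 2. At 15 µM (0.31, adjusted p = 0.0216) it was lost without vehicle library 1 or 3 or AA132 15 µM library 3. With the 3 libraries that stood apart left out, the calls at 6, 15 and 30 µM held (0.260, 0.253 and 0.233). CYP51A1 was then also called at 10 µM (0.302, adjusted p = 0.00741). HSD17B7 was called at 15 and 30 µM (0.40 at both, adjusted p = 0.0216 and 0.0111). At 30 µM it had 26.5, 25.6 and 33.2 CPM, above the highest vehicle library at 24.5 CPM. Without vehicle library 2 or AA132 30 µM library 3 the 30 µM call of HSD17B7 was lost, and the 15 µM call was lost without vehicle library 2 or 3 or AA132 15 µM library 2 or 3. With the 3 libraries that stood apart left out, HSD17B7 was called at 6, 10, 15 and 30 µM (0.428, 0.465, 0.499 and 0.504).

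With all libraries edgeR called HMGCS1 at 10 µM only. At 6 µM it had 374.7, 409 and 386 CPM and at 15 µM 372, 379.8 and 365.7 CPM, all above its highest vehicle library. DESeq2 called it at 6 µM (0.37, adjusted p = 0.0367). So did edgeR at 6 µM without the 3 libraries that stood apart (0.24, adjusted p = 0.00933). At 10 µM the libraries differed. It had 506 CPM in AA132 10 µM library 1 and 393 and 389.9 CPM in libraries 2 and 3, against 248, 333 and 327 CPM in vehicle. The groups did not overlap, and the log2 fold change was 0.50 (SE 0.10, adjusted p = 0.00477). The call was lost without AA132 10 µM library 1, and with vehicle library 1 and AA147 library 1 left out as well the value was 0.24 and called (adjusted p = 0.013). The same AA132 library was high in IDI1 (327, 191 and 169 CPM) and INSIG1 (115, 79.4 and 78.5 CPM). Neither was called at 10 µM, and INSIG1 moved from 0.31 to 0.007 without the libraries that stood apart. Of the 19 sterol genes 9 were highest in this library and 5 lowest. The median of the ER genes of the ATF6 type against vehicle was 0.52 in it, and 0.81 and 0.88 in libraries 2 and 3.

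At 6 µM 3 members were called higher and 0 lower, against 0.866% and 0.202% of all genes. At 10 µM 3 were called higher and 0 lower (1.03% and 0.371%), and at 15 µM 4 were called higher and 0 lower (1.97% and 0.792%). At 30 µM 4 were called higher and 3 lower, against 3.86% and 3.19%. Without the 3 libraries that stood apart the counts were 6 higher and 0 lower at 6 µM, 7 and 0 at 10 µM, 5 and 1 at 15 µM, and 8 and 2 at 30 µM. The shares of all genes called, in either direction, rose in that setting to 6.01%, 7.73%, 6.35% and 15.1%. NSDHL and MVD were among the members then called higher at 10 and 30 µM, with 0.30 and 0.27 at 10 µM and 0.17 and 0.23 at 30 µM. DESeq2 with all libraries called 4, 6, 5 and 8 members at the 4 doses, against 2.4%, 3.43%, 5.87% and 12.5% of all genes. Single libraries also set the counts: 1 member was called at 6 µM without any 1 library of that dose, 6 at 10 µM without vehicle library 1, 1 at 15 µM without AA132 library 3, and 3 or 4 at 30 µM without AA132 library 1 or 2. Without vehicle library 1, 3.6% of all genes were called at 10 µM. With only the 2 conditions compared in the fit, 0 members were called at any of these doses by edgeR, and at most 0.449% of all genes, so all AA132 calls against vehicle rest on the spread estimated over the 11 conditions.

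The 3 genes called lower at 30 µM were ACAT2, FDPS and ACLY. ACLY had 769, 785 and 764 CPM against 816, 899 and 907 CPM in vehicle, a small change with no overlap (-0.18, adjusted p = 0.0296), and the call was lost without vehicle library 2 or 3 or any 1 library of that dose. ACAT2 had 254, 280.5 and 287 CPM against 351, 329 and 306 CPM (-0.26, adjusted p = 0.0114), a call lost without AA132 30 µM library 1. FDPS, the farnesyl diphosphate synthase, had 199.8, 198 and 214 CPM against 290.0, 225 and 215 CPM. The separation of the FDPS groups was narrow (-0.25, adjusted p = 0.0304), and its call was lost without vehicle library 1 or AA132 30 µM library 1 or 2. FASN had 1205, 1123 and 1102 CPM at 30 µM, all below vehicle, and was not called (-0.16, adjusted p = 0.191). Its libraries at 10 µM, 1097, 1378 and 1263 CPM, overlapped vehicle. SCD had 119, 116 and 102 CPM at 30 µM (0.10, and -0.04 without vehicle library 1) and 128.5, 123.3 and 122 CPM at 10 µM. SQLE had 192, 200.6 and 213 CPM at 30 µM (0.09) and 221, 192 and 185 CPM at 10 µM (0.07), and overlapped vehicle at both. SREBF2 had 414, 399 and 414 CPM at 30 µM (0.07, 95% interval -0.035 to 0.171) and 365, 411 and 399.9 CPM at 10 µM. INSIG1 had 86.6, 86.4 and 82.8 CPM at 30 µM, just above its highest vehicle library (0.22, adjusted p = 0.344).

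**Figure D2:**
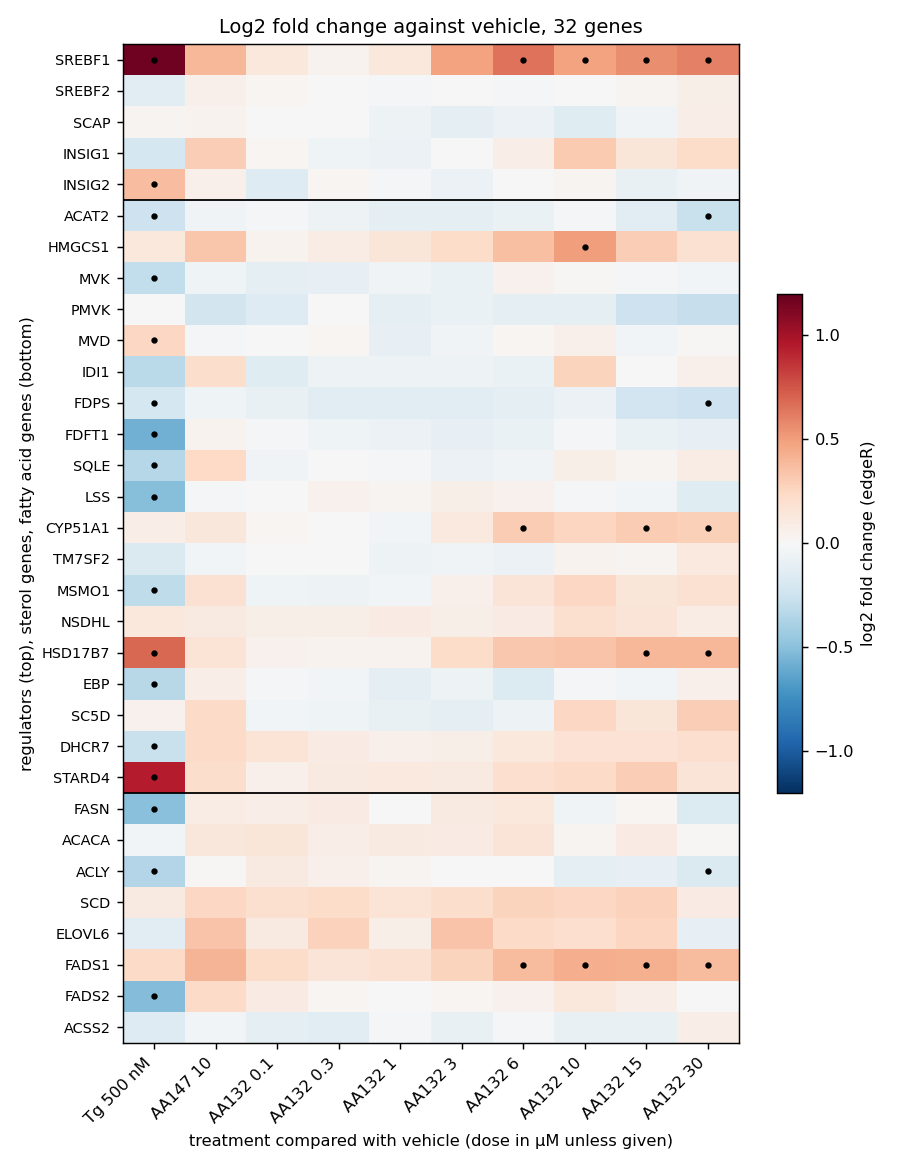
Log2 fold change against vehicle of the 32 genes (rows, in the order regulators, sterol genes, fatty acid genes) for each of 10 treatments (columns), with a dot where the edgeR adjusted p was under 0.05. Dots under Tg mark 17 genes, and the rows of SREBF1 and FADS1 carry dots at AA132 6, 10, 15 and 30 µM.

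The slope on log10 dose was fitted over the 24 AA132 libraries, without vehicle. It was higher for 8 members and lower for 1, against 9.83% and 8.89% of all genes tested. SREBF1 had the steepest slope, a log2 rise of 0.25 per log10 unit of dose (SE 0.04, adjusted p = 1.41e-05). HSD17B7 rose by 0.18, CYP51A1 by 0.15, SC5D, the lathosterol oxidase, by 0.13, HMGCS1 by 0.13, and the methyl sterol oxidase gene MSMO1 by 0.12. INSIG1 and FADS1 each rose by 0.11, and ACLY fell by 0.10 (adjusted p = 1.41e-05). The SC5D and INSIG1 calls were lost without the 30 µM dose (adjusted p = 0.0913 and 0.0632). All 9 members remained called when AA132 1 µM library 1 and 3 µM library 3 were left out. Without AA132 10 µM library 1 the count was 12, with IDI1 also called higher and ACAT2 and FDPS lower, beside 20.5% of all genes called in either direction. The mean of HMGCS1 was highest at 10 µM, at 429.7 CPM, and 344 CPM at 30 µM, so a straight line does not describe its course.

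**Figure D3:**
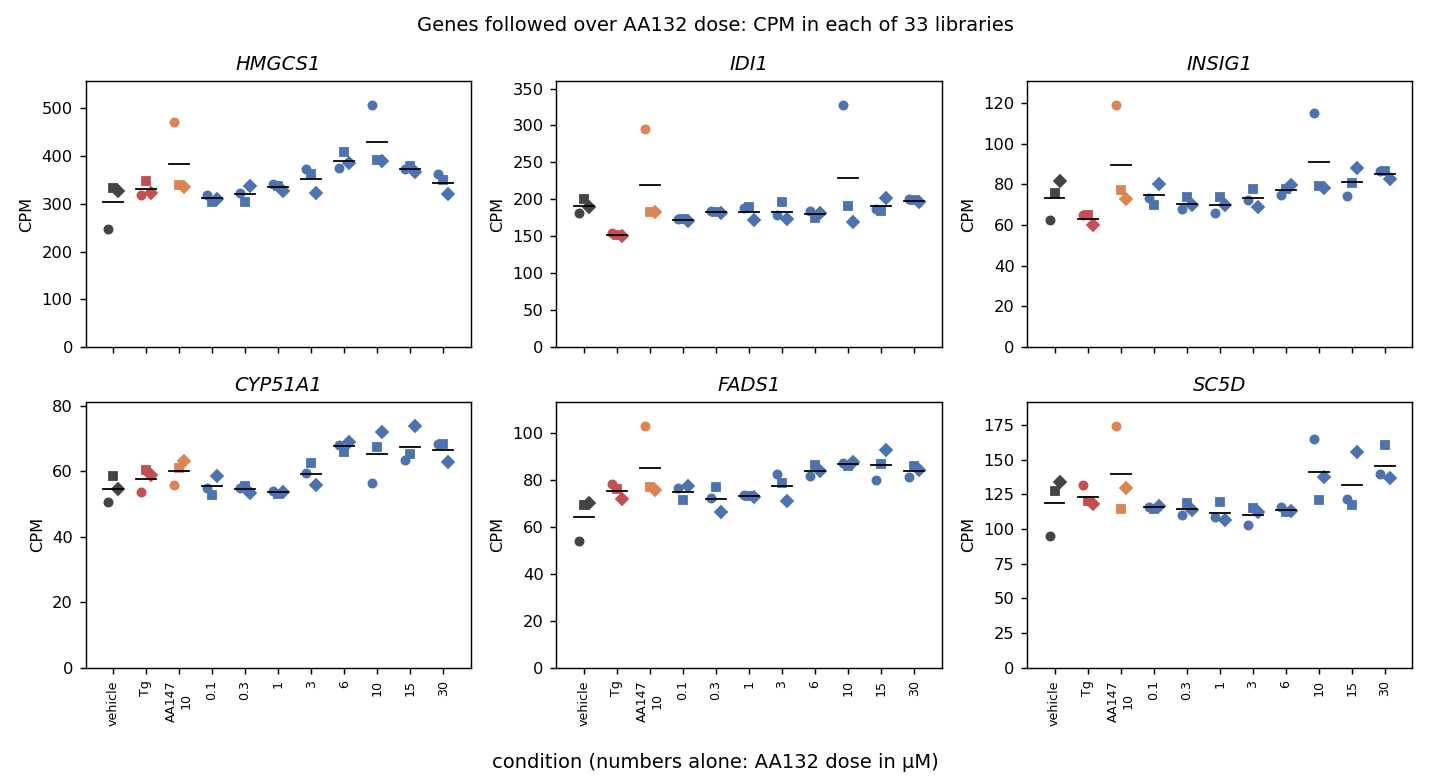
CPM in each of the 33 libraries for 6 genes, by condition on the horizontal axis, with circles, squares and diamonds for libraries 1, 2 and 3 and bars for means. In HMGCS1, IDI1, INSIG1 and SC5D the circle is the highest point of both AA147 and AA132 10 µM, and the mean of CYP51A1 is 53.5 to 59.2 CPM at 0.1 to 3 µM and 65.2 to 67.4 CPM from 6 µM, against 54.5 CPM in vehicle.

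The 2 compounds were compared at 10 µM and 6 h, the dose and time they share. By edgeR 0 of the 32 genes differed, against 0.0674% of all genes, with 3 members at an unadjusted p under 0.05, as had 8.01% of all genes, and 0 called by DESeq2. This was 1 pair of compounds. The lowest adjusted p was 0.443, for SCAP, and the 95% intervals of the members' log2 differences (AA132 minus AA147) spanned -0.425 to 0.381. SREBF1 had 14.7 to 15.3 CPM under AA132 and 13.3 to 15.1 CPM under AA147. Differences within those intervals cannot be told from 0 with these libraries, which does not show that the compounds act alike. Leaving out library 1 of both and of vehicle also gave 0 calls. In this comparison the libraries of the same number deviated together (correlations of 0.442, 0.152 and 0.222 over genes). With the number as a block edgeR again called 0 members, both in the fit of all conditions and in a fit of these 2 conditions alone, where 0.248% of all genes were called, against 0.0% in that fit without the block.

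AA132 at 30 µM was tested against Tg directly, since both were compared with the same vehicle libraries. This contrast does not use vehicle, and 16 members were higher and 5 lower under AA132, against 14.3% and 15.5% of all genes. FADS2 had 83.4, 89.8 and 98.3 CPM under AA132 and 63.9, 62.5 and 61.4 CPM under Tg, the largest positive difference (0.53, SE 0.08, adjusted p = 2.27e-06). MSMO1 was higher by 0.49, FDFT1 by 0.48 (271, 280.1 and 305 CPM against 201, 204 and 209), DHCR7, the last enzyme of one branch to cholesterol, by 0.46 and SQLE by 0.44. INSIG1 was higher by 0.43 (SE 0.13, adjusted p = 0.00998) and SREBF2 by 0.19 (adjusted p = 0.0037), with no overlap in either. Among the 16 higher calls, that of IDI1 was lost by DESeq2 and without any 1 library of either condition. Those of CYP51A1, TM7SF2 and ACSS2 were each lost when any 1 of several libraries was left out. The genes lower under AA132 were STARD4 (-0.79), SREBF1 (-0.56, adjusted p = 1.22e-04), INSIG2 (-0.42), HSD17B7 (-0.29) and PMVK (-0.28). The last 2 of these calls were each lost when any 1 of several libraries was left out: AA132 30 µM library 1 or 2, or any Tg library. SREBF1 was thus higher than vehicle under both treatments and higher under Tg than at 30 µM AA132. In the same contrast 10 ER genes of the type that ATF6 induces had a median difference of -1.82, with 10 of 10 lower under AA132.

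The comparisons of Tg and of AA132 30 µM with vehicle share the vehicle libraries, so their values are only set side by side. Under Tg and then at 30 µM, SREBF1 had 1.17 and 0.61, HSD17B7 0.69 and 0.40, ACAT2 -0.25 and -0.26, FDPS -0.21 and -0.25, and ACLY -0.35 and -0.18. These are the members called in both by edgeR with all libraries, 2 higher and 3 lower, and in that fit 0 were called in opposite directions. Means of some others, such as MSMO1, DHCR7 and SQLE, lay on opposite sides of vehicle. MSMO1 had 57.5 CPM in vehicle, 46.6 under Tg and 65.3 at 30 µM. DHCR7 had 165, 137 and 189 CPM, and SQLE 189, 149 and 202 CPM, and at 30 µM these were not called by edgeR with all libraries. DESeq2 called DHCR7 higher at 30 µM (0.199, adjusted p = 0.0387). Without the 3 libraries that stood apart edgeR called it higher at 30 µM (0.215, adjusted p = 0.0249) and lower under Tg (-0.256, adjusted p = 0.00266). In the edgeR fit of all conditions and libraries, with the filter on low counts, 12 members were called in none of the 10 comparisons with vehicle. They were SREBF2, SCAP, INSIG1, PMVK, IDI1, TM7SF2, NSDHL, SC5D, ACACA, SCD, ELOVL6 and ACSS2. Most of them were called under some alternative. Examples without the 3 libraries that stood apart are IDI1 and INSIG1 under Tg and NSDHL at 10 µM (0.30, adjusted p = 0.00213).

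**Figure D4:**
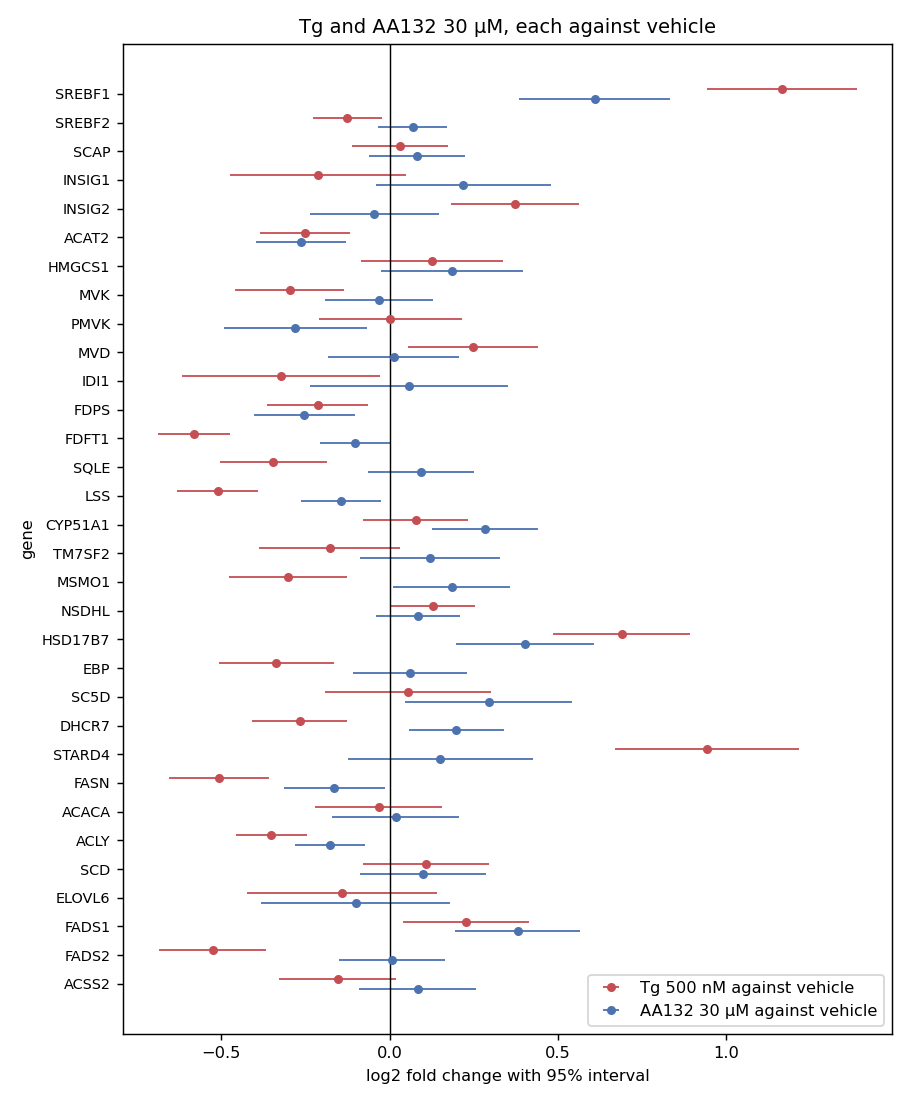
Log2 fold change against vehicle of each of the 32 genes under Tg (red) and AA132 30 µM (blue), with 95% intervals from edgeR. Under Tg FDFT1, LSS, FASN and FADS2 lie near -0.5 and SREBF1 and STARD4 near or above 0.9, while at AA132 30 µM SREBF1 is the farthest from 0.

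The site proteases that SREBPs share with ATF6 were read beside these genes. Under Tg MBTPS1, the site-1 protease, was lower (-0.27, adjusted p = 7.50e-05) and MBTPS2, the site-2 protease, higher (0.46, adjusted p = 0.00173). MBTPS2 had 49.9, 75.8 and 81.0 CPM in vehicle, lowest in library 1, and 104, 91.7 and 87.6 CPM under Tg. Without vehicle library 1 its value was 0.26 (adjusted p = 0.0232), and the fit of 2 conditions did not call it (adjusted p = 0.0882). Neither was called under AA147 or any AA132 dose. A list of 10 ER genes of the type that ATF6 induces, such as HSPA5, had a median log2 fold change of 2.60 under Tg with 10 of 10 called higher, and 0.35 under AA147 with 0 called. Over AA132 doses of 3, 6, 10, 15 and 30 µM its median was 0.39, 0.70, 0.78, 0.86 and 0.86, with 4, 9, 9, 10 and 10 called. Of all genes 0.101%, 0.866%, 1.03%, 1.97% and 3.86% were called higher at these doses, and 16.2% under Tg. At 3 µM without AA132 3 µM library 3 the median of the ER genes was 0.53 with 7 called, beside 0.221% of all genes called higher. Without library 1 or 2 of that dose or vehicle library 2 or 3, 0 of the ER genes were called at 3 µM. At 1 µM their median was 0.17, and 0.05 without AA132 1 µM library 1, with 0 called either way. The sterol medians at the same doses were -0.04, 0.03, 0.07, 0.03 and 0.09, and the fatty acid medians 0.10, 0.14, 0.08, 0.09 and 0.01. From 6 µM up the ER median was at least 0.70 and the sterol and fatty acid medians at most 0.14. The part of the proteases in these values was not tested.

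**Figure D5:**
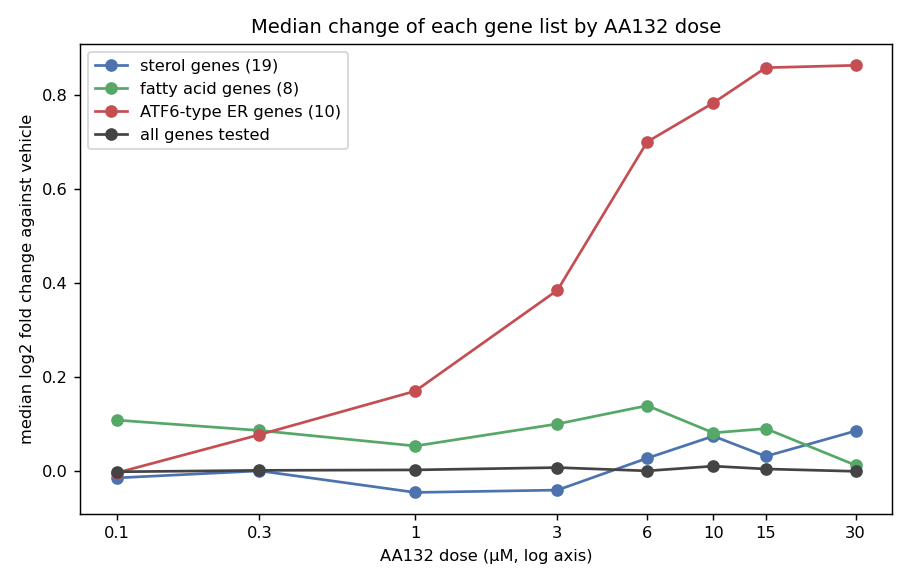
Median log2 fold change against vehicle of each gene list by AA132 dose (µM, log axis). The line of the 10 ER genes climbs from 3 µM to 0.86 at 30 µM, while the 19 sterol and 8 fatty acid genes stay between -0.05 and 0.14 at every dose.

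Other genes of sterol handling were read as a list of 9. Under Tg 2 rose (GGPS1 and NPC1) and 1 fell (NPC2, -0.38, adjusted p = 0.00169), beside 16.2% and 15.0% of all genes. At AA132 30 µM, beside 3.86% and 3.19%, 3 rose and 0 fell, led by NPC1, which exports cholesterol from lysosomes (0.62, SE 0.08, adjusted p = 1.52e-06), with TMEM97 and GGPS1, whose calls were lost without AA132 30 µM library 2 and, for TMEM97, without vehicle library 1 or 2. Of 5 genes for the turnover of SREBPs and INSIGs, edgeR called 0 under Tg, with log2 fold changes from -0.05 to 0.09, and 0 at AA132 30 µM, with values from -0.20 to 0.16. Of 14 other fatty acid and phospholipid genes, 3 rose and 2 fell under Tg, so the counts of these lists under Tg are near the shares over all genes. Among the 3, ACACB and ACSL3 were not called without vehicle library 1 or Tg library 3. MID1IP1, which promotes the assembly of acetyl-CoA carboxylase, had 1.01 (adjusted p = 1.81e-06) and SLC25A1, the mitochondrial citrate carrier, -0.66 (adjusted p = 1.82e-07). At AA132 30 µM 4 of these 14 rose, among them LPIN1, a phosphatidate phosphatase (0.53, adjusted p = 0.00273), and the elongase gene ELOVL5 (0.51, adjusted p = 2.23e-04), and 1 fell (PCYT2, -0.42). Another of the 4, HACD3, was not called without vehicle library 1 or AA132 30 µM library 1 or 2. Of 7 genes tied to the liver X receptors 6 were tested, and 1 rose under Tg, ABCG1 (1.43, SE 0.46, adjusted p = 0.0157), a call lost without vehicle library 1 or 2 or Tg library 3. ABCG1 counts were low, at 0.39, 0.22 and 0.98 CPM in vehicle and 0.87, 1.2 and 2.23 CPM under Tg, and the groups overlapped. Without Tg library 3 its value was 0.94. At AA132 30 µM 0 of the 6 were called.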

How the data were processed

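HEK293T libraries of 11 conditions were analysed. The authors deposited 1 table of expected counts, which the file headers call total reads on a linear scale. The genome build was GRCh38.p7, per the submitters' processing notes. The aligner, counting tool, annotation and use of strand are not given in the sources used here. The value 0.009 stands in place of 0 in 43.5% of cells and was set to 0, 3.22% of cells are fractional, and values were rounded before modelling. Of 38074 entries, 98 shared 45 names and were summed, while 28 entries with names turned into dates were kept apart. Within conditions the chi-square per degree of freedom between libraries had a median of 8.01 (4.67 to 64.5), so they were treated as replicates.

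Testing used edgeR 4.0.16 (R 4.3.3), its quasi-likelihood F-test on all 11 conditions in 1 fit, with TMM normalization, the edgeR filter on low counts and no block. The dose slope was fitted over 24 AA132 libraries. P-values were adjusted by Benjamini-Hochberg over all genes tested, with calls at 0.05, and "rose", "fell" and "called" refer to this test. Adjusted p-values are edgeR's unless DESeq2 (1.42.0) is named. CPM are scaled by the TMM factors. The fits were tested on simulated counts. Alternatives were size factors of the RLE type, no filter, DESeq2, a replicate block, fits of 2 conditions, leaving out each library, and, chosen after seeing the data, leaving out the 3 libraries that stood apart, or AA132 1 µM library 1 with 3 µM library 3, and a block in the fit of AA132 and AA147 at 10 µM alone. The genes, lists and tests were chosen with earlier results of these data known. Any of the 32 genes could be named, with library values for SREBF1, SREBF2, INSIG1, HMGCS1, SQLE, FASN, SCD and the largest changes, and other genes were named from the fixed lists, of which some members are not reported here. Positions are from GENCODE v44 on GRCh38, and promoter sequence from RefSeq. The mitochondrial share of counts was not analysed here.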

Additional observations from a re-analysis of the deposited data

How the results depend on the processing

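Of 64 calls of members by edgeR, 33 were kept under every alternative run for them. RLE size factors kept all 64, DESeq2 lost 1, no filter on low counts lost 4 and the fits of 2 conditions lost 23 of the 55 they could test. The sterol and fatty acid medians moved by more than their spread in 6 of 354 recomputed values. Against vehicle this spread includes vehicle library 1, so it could miss moves that rest on that library. For the fatty acid median under Tg the spread was 0.164. Its move from -0.147 to -0.274 without the 3 libraries that stood apart was thus not counted. In 11 of 12 comparisons same-numbered libraries did not all deviate together, with correlations from -0.515 to 0.346. The exception was AA132 against AA147 at 10 µM (0.152 to 0.442), where the block, also in a fit of these 2 conditions added after seeing the data, left 0 members called. In all, 12 of 33 libraries correlated best with their own number. With the replicate block the member counts were as without it, 17 under Tg, 3 at AA132 6 and 10 µM, 4 at 15 µM and 7 at 30 µM.

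Counts that moved were as follows. With no filter AA147 gave 2 called members, AA132 3 µM 1, 10 µM 5 and 15 µM 7. Over all genes 82 were then called for AA147 and 153 at 3 µM, against 4 and 21 with the filter. DESeq2 gave 1 for AA147, 1 at 3 µM and 6 at 10 µM, beside 0.25%, 0.564% and 3.43% of all genes. Fits of 2 conditions gave 0 at 6, 10, 15 and 30 µM. Without the 3 libraries that stood apart there were 1 at 3 µM, 6 at 6 µM and 7 at 10 µM, beside 1.95%, 6.01% and 7.73% of all genes. Without AA132 1 µM library 1 and 3 µM library 3 there was 1 at 3 µM, beside 60 of all genes. Leaving out 1 library gave 15 to 19 under Tg, 0 to 1 at 3 µM, 1 to 4 at 6 µM, 2 to 6 at 10 µM, 1 to 5 at 15 µM, 3 to 7 at 30 µM, 16 to 18 for AA132 30 µM against Tg and 9 to 12 for the slope. It gave 0 for AA147, for AA132 at 0.1, 0.3 and 1 µM, and for AA132 against AA147. Under Tg the 15 came without Tg library 2, where 4571 of all genes were called. The 19 came without vehicle library 1, where 5148 were called, against 5551 with all libraries. Fits of 2 conditions use fewer libraries. That of AA132 30 µM against Tg called 24 members and 37.6% of all genes, against 21 and 29.8% in the fit of all conditions. For none of these settings was the cause tested.

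Signs turned for some uncalled values. Without vehicle library 1, and without the 3 libraries, HMGCS1 under Tg was -0.006, SCD under Tg -0.036 and SCD at 30 µM -0.039. Without the 3 libraries INSIG1 under AA147 was -0.065, and at 10 µM SQLE was -0.039 and FASN 0.086. At 10 µM FASN was 0.002 without vehicle library 1 and 0.036 without AA132 10 µM library 1, where SQLE was -0.014. SREBF2 at 10 µM was -0.002 with no filter, -0.029 and -0.011 without AA132 10 µM library 2 or 3, and -0.036 without vehicle library 2. Leaving out 1 library, the values ran up to 0.183 for HMGCS1 and 0.191 for SCD under Tg and 0.194 for SCD at 30 µM. At 10 µM they ran up to 0.047 for SREBF2 and 0.122 for SQLE, and down to -0.117 for FASN. With 3 libraries a condition, the spread between libraries limits what could be called.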
